A study of Homo sapiens with 4 samples.

Results

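The genes of glycolysis and of the response to low oxygen were followed in breast cancer cells depleted of hnRNPM, an RNA-binding protein of the heterogeneous nuclear ribonucleoprotein family that takes part in splicing. The set holds 36 genes chosen by name for their roles, and all 36 are among the 20329 genes of the deposited table that were used. All 36 also have a mean of at least 1 FPKM (fragments scaled to the length of the gene model and to the depth of the library) over the libraries, as have 13928 genes in all. The cells were BM1 (1833) and LM2 (4175), derivatives of the triple-negative line MDA-MB-231 labelled as its bone metastasis (BM1) and lung metastasis (LM2) derivatives. For each there was 1 library from cells carrying a non-specific shRNA (control) and 1 from cells carrying an shRNA against hnRNPM (knockdown), in all 4 libraries of polyadenylated RNA. All 4 cultures carried a lentiviral shRNA stably and grew in the same medium. No source used here says whether a culture is a pool or a clone, or at what oxygen level it grew. The libraries of a line are called its pair, and the values of a pair are given as control against knockdown.

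Glycolysis splits glucose into pyruvate in a chain of cytosolic steps, many of which have several isozymes, and cancer cells often pass much of that pyruvate on to lactate. The response to low oxygen is run by hypoxia-inducible factors (HIF), dimers of an oxygen-labile alpha subunit and a stable beta subunit. In oxygen, prolyl hydroxylases of the EGLN family mark the alpha subunit for destruction through the VHL ubiquitin ligase. When oxygen is short, the alpha subunit persists and HIF switches on glucose transporters, most glycolytic enzymes, acid-handling carbonic anhydrases and angiogenic factors. Because this control acts largely on the HIF protein, the messenger level of an alpha subunit is not a measure of HIF activity.

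The libraries held about 22781000 to 41503000 fragments, inferred from the steps of the low values, and in each line the knockdown library was the shallower one. HNRNPM itself was at 16.6% of control in the BM1 knockdown and at 15.4% in the LM2 knockdown. Over both lines HNRNPM differed by -2.59 ± 0.25 (log2(FPKM + 1), standard error, limma, adjusted p 0.00318). Even this call was lost with a pseudocount of 0.1 (0.0550), without the filter on low values (0.220) and with quantile normalization (0.0596). Mitochondrial genes took 9.31% (BM1) and 8.80% (LM2) of the FPKM sum in the controls, against 12.8% and 11.8% in the knockdowns. Of the markers checked, CD44 was at 155 to 223 FPKM and EGFR at 31.4 to 80.6 FPKM. VIM was at 2354 against 1159.8 FPKM in the BM1 pair and 1575 against 1795 FPKM in the LM2 pair (limma, adjusted p 0.465). The estrogen and progesterone receptor genes ESR1 and PGR have no entry in the table used here. ERBB2, listed beforehand as a low marker of triple-negative cells, was at 13.5 to 21.9 FPKM. No cutoff for a high or low marker was set. All 4 epithelial markers checked stood higher in both knockdowns, with a summed level of 559.7 against 1438 FPKM in the BM1 pair and 618 against 1407 FPKM in the LM2 pair. Of these, KRT8 (limma, adjusted p 0.0253) and CDH1 (0.0144) rose, while KRT18 (0.0750) and EPCAM (0.622) did not pass. Both calls were lost with quantile normalization (KRT8 0.0736, CDH1 0.0691), and that of KRT8 also with a pseudocount of 0.1 (0.104). CDH1 was low in the controls, at 0.489 (BM1) and 0.170 (LM2) FPKM. KRT8 and KRT18, which make up most of the sum, overlap each other on opposite strands. The epithelial markers moved with the treatment as EPAS1 did, and their part in the results was not tested. Of the markers of leukocytes and endothelium, CD14 (1.47 to 7.09 FPKM) and VWF (0.0300 to 0.163 FPKM) have entries and PTPRC, CD3E, PECAM1 and CDH5 have none. CD14 was highest in the LM2 knockdown library, and its part in any result was not tested. A difference within a pair is between 2 libraries, without replicates. Tests over both lines or both treatments rest on these libraries and have 1 residual degree of freedom. It holds how far an effect differs between the lines or treatments, not the spread of replicate cultures. In the main limma fit it is combined with a prior variance drawn from all tested genes, worth 7.70 degrees of freedom. The standard errors and p-values therefore lean mostly on that prior. The same 4 libraries enter the contrast of treatments and that of lines. Statements below that the libraries of a group lay above, below or apart from the others describe the values used in the test. They are not further evidence, and the share of all tested genes so ordered was not counted. In bulk RNA, fewer cells with a transcript and less of it per cell cannot be told apart.

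HIF binds DNA at a short core, ACGTG or GCGTG. The upstream sequences of the 5 genes that passed a test are shown because 4 of them differ between the lines and the other changed with the knockdown. They are the 250 bases before the most upstream start in RefSeq's GRCh38.p14 promoter table, read 5′ to 3′ on the gene's strand, with each core in capitals (a core on the other strand reads CACGT or CACGC). EPAS1 lies at chr2:46297157-46297406 (plus strand), HK2 at chr2:74833877-74834126 (plus), CA9 at chr9:35673678-35673927 (plus), CA12 at chr15:63381847-63382096 (minus) and ALDOC at chr17:28576896-28577145 (minus).
EPAS1: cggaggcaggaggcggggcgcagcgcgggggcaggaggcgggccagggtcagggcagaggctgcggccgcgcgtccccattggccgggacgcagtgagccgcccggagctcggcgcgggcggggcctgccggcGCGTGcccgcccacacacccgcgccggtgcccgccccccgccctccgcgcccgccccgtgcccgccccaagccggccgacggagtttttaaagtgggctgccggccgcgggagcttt
HK2: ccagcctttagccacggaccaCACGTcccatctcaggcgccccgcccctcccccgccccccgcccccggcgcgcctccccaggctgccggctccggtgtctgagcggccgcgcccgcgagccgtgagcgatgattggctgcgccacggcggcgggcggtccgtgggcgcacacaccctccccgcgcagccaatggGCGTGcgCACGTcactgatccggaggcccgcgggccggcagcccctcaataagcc
CA9: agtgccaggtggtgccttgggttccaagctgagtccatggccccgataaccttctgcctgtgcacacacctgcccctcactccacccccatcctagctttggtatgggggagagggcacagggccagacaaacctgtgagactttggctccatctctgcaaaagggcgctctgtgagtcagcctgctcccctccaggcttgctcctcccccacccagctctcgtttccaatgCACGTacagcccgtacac
CA12: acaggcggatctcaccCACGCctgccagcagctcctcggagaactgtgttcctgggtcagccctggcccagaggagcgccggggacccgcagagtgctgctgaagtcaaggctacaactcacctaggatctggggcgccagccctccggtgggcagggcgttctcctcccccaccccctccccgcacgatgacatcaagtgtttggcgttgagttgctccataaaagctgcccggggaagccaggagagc
ALDOC: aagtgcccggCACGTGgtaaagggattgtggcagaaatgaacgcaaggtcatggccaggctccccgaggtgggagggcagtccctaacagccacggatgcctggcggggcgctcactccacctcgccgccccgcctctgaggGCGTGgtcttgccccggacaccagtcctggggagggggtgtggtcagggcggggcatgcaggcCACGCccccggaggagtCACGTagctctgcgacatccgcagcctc
In CA9 the single core begins 18 bases before the start, in EPAS1 117 bases before it and in CA12 234 bases before it. HK2 holds cores at 229, 55 and 48 bases before the start. ALDOC holds 5, at 240, 239, 108, 45 and 28 bases, of which the first pair overlap in the palindrome CACGTG, also the core of the E-box motif. A promoter window (these 250 bases and the 50 after the start) was matched for 33 of the 36 genes and not for BNIP3L, NDRG1 and VEGFA. The core was present on either strand in 26 of the 33 windows (78.8%), against 48.4% of the windows of 27305 genes and 63.9% of those of 9127 genes with a mean of at least 1 FPKM. With the longer ACGTGC or GCGTGC it was present in 16 windows (48.5%), against 18.8% and 27.7%. These are matches of letters, not binding sites.

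The levels spanned 3 orders of magnitude. GAPDH, which oxidises glyceraldehyde phosphate, was the highest of the 36, with a mean over the libraries of 2405 FPKM. ENO1 (enolase) followed with a mean of 1665 FPKM and PKM (pyruvate kinase) with 1213 FPKM. The lowest means were those of PDK3 (2.03 FPKM), EGLN3 (2.61 FPKM) and PDK1 (2.88 FPKM). The pyruvate dehydrogenase kinases PDK1 and PDK3 restrain pyruvate dehydrogenase, and EGLN3 is a HIF prolyl hydroxylase.

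**Figure D1:**
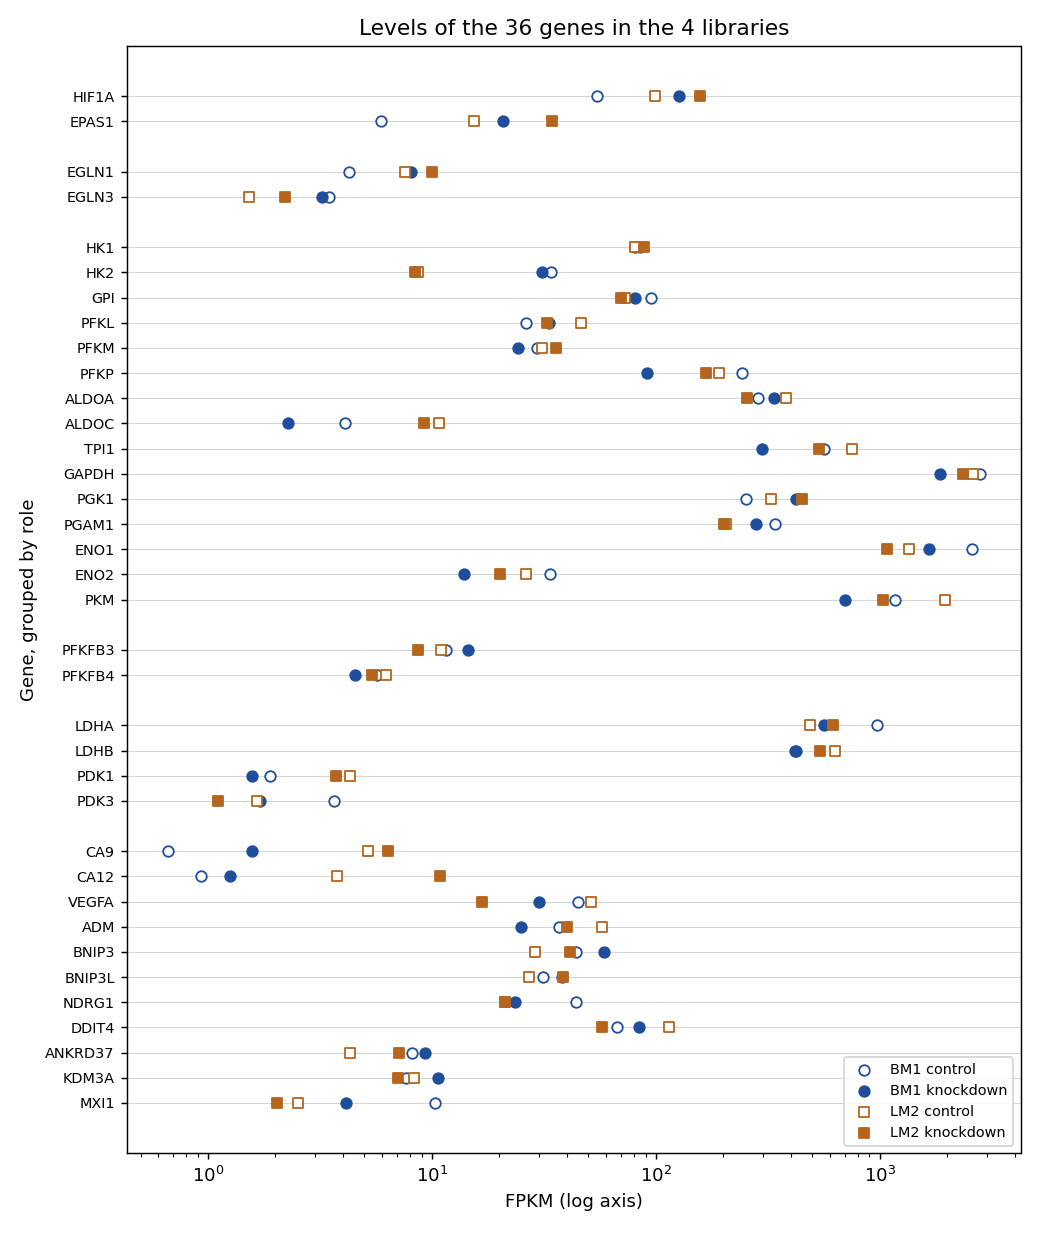
FPKM (log axis) of each of the 36 genes in each of the 4 libraries (both lines, control and knockdown), grouped by role, with 1 point per library. The points of EPAS1 lie to the right in both knockdowns, HK2 splits by line, and CA9 and CA12 lie furthest right in the LM2 libraries.

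The first question was what hnRNPM depletion did to these transcripts in both lines. EPAS1 was the only one of the 36 that passed the test over both lines, and it rose. The other 35 did not pass, with adjusted p-values from 0.0775 to 0.994. The share of members called was 2.78%, against 5.47% of all tested genes (2.71% higher and 2.76% lower) at an adjusted p of 0.05 in the same limma fit on log2(FPKM + 1). At an unadjusted p under 0.05 there were 10 of the 36 (27.8%), near the 24.9% of all tested genes.

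The alpha subunits of HIF both stood higher in the knockdown library of each line. EPAS1 (ENSG00000116016.13, HIF-2 alpha, chromosome 2, 46520806 to 46613842 on GRCh37, as for all gene positions given as start to end) was at 5.90 against 20.7 FPKM in the BM1 pair and 15.5 against 34.3 FPKM in the LM2 pair. Both knockdown libraries lay above both controls. The ratio of knockdown to control was 3.51 in BM1 and 2.22 in LM2, and over both lines EPAS1 rose by 1.38 ± 0.27 on the log2(FPKM + 1) scale (standard error, limma, adjusted p 0.0266). This call was lost with a pseudocount of 0.1 (0.104), without the filter on low values (0.220), with quantile normalization (0.0833) and without the term for cell line (0.416). Leaving out 1 library, in a fit without that term, changed the estimate to 0.75 (BM1 control left out), 1.73 (BM1 knockdown), 2.004 (LM2 control) or 1.03 (LM2 knockdown), with adjusted p-values of 0.326 to 0.780.

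HIF1A (HIF-1 alpha, the broadly expressed alpha subunit) was at 54.7 against 126 FPKM in the BM1 pair and 99.5 against 157 FPKM in the LM2 pair. Here too both knockdown libraries lay above both controls. The difference over both lines was 0.92 ± 0.27 (log2, standard error, limma) and did not pass the test (adjusted p 0.0809), although it did when the spread was modelled with an intensity trend (adjusted p 0.0450). After removal of the trend of each library with GC content and transcript length it was 0.55 (adjusted p 0.177), and without the BM1 control library it was 0.50. HIF1A overlaps HIF1A-AS1 and HIF1A-AS2 on the opposite strand and another entry on the same strand. Whether counting used the strand of these stranded libraries is not stated in any source used here, so its level is uncertain. EPAS1 overlaps no other entry. As a share of FPKM, a measure per length, EPAS1 made up 9.74% of both alpha subunits in the BM1 control and 14.1% in the BM1 knockdown, and 13.4% and 17.9% in LM2.

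The prolyl hydroxylases that hydroxylate these subunits did not pass. EGLN1, the main oxygen sensor, was at 4.25 against 8.09 FPKM in the BM1 pair and 7.60 against 10.0 FPKM in the LM2 pair (adjusted p 0.217). EGLN3, which overlaps SPTSSA on the same strand, stayed between 1.52 and 3.47 FPKM (adjusted p 0.781).

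Of the 15 glycolytic enzymes none was called in limma. At an unadjusted p under 0.05 there were 5 (33.3%), against 24.9% of all tested genes. Their median difference was -0.17 on the log2 scale, against -0.01 over all tested genes. By sign alone 10 of the 15 (66.7%) stood lower in the knockdown library of both lines and 1, PGK1, stood higher in both, while 36.2% of all tested genes were lower in both and 33.0% higher in both. Over all 36 genes 17 (47.2%) were lower in both lines, 9 (25%) were higher in both and 10 differed in sign between the lines. The 10 enzymes became 8 with size factors and 7 both with quantile normalization and with the trend of each library in GC content and length removed, where those higher in both were 1, 2 and 4. These counts have no test.

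PKM, which makes pyruvate in the last step, stood at 1166 against 700.4 FPKM in the BM1 pair and 1947 against 1037 FPKM in the LM2 pair. Both knockdown libraries lay below both controls. The difference was -0.82 ± 0.25 (log2, standard error, limma, adjusted p 0.0944), and of the alternatives tried it passed only with an intensity trend in the spread (adjusted p 0.0385). It was -0.45 without the LM2 control library and -0.54 without the BM1 knockdown library. The table holds gene levels, so the splice forms of PKM were not analysed here. TPI1, triose phosphate isomerase, was at 565 against 297 FPKM in the BM1 pair and 753 against 538 FPKM in the LM2 pair (adjusted p 0.144). GAPDH was at 2801 against 1862 FPKM in the BM1 pair and 2600.1 against 2358 FPKM in the LM2 pair (adjusted p 0.425), and ENO1 at 2582 against 1656 FPKM in the BM1 pair and 1349.6 against 1074 FPKM in the LM2 pair (adjusted p 0.281). ENO1, which overlaps ENO1-IT1 on the same strand, stood lower in each knockdown than in the control of its line, and so did GAPDH. Several of these abundant transcripts have processed pseudogenes or retrogene copies, so reads could be split between copies in counting. PGK1, phosphoglycerate kinase, differed in the other direction, at 252 against 424 FPKM in the BM1 pair and 328 against 448 FPKM in the LM2 pair (adjusted p 0.190). Of the remaining enzymes, GPI, which isomerises glucose 6-phosphate, was at 70.0 to 94.8 FPKM, the phosphofructokinase isozymes PFKL and PFKM were at 24.2 to 46.1 FPKM, and the mutase PGAM1 was at 202 to 340.0 FPKM.

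Summed over the 15 enzymes the FPKM was 8542 against 5914 in the BM1 pair and 8035 against 6347 in the LM2 pair. The knockdown sum was thus 69.2% of control in BM1 and 79.0% in LM2. Mitochondrial transcripts, which share the FPKM total, took the larger shares in the knockdowns given above, and their part in this difference was not tested beyond the values that follow. As a share of the FPKM total, the knockdown level stood at 72.3% (BM1) and 78.6% (LM2) of control, and with mitochondrial genes left out of that total it was 75.2% and 81.3%. With GAPDH, ENO1 and PKM, which dominate the sum, left out, the FPKM sums themselves were 85.1% and 87.8% of control. These sums have no test.

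Within a pair, differences of 2-fold or more in FPKM + 1 (1 on the log2 scale) were counted. In BM1 5 of the 36 genes reached it (16.3% of all tested genes did, 10.1% upward and 6.20% downward), HIF1A and EPAS1 upward and PFKP, ENO2 and MXI1 downward. PFKP, the platelet isozyme of phosphofructokinase, which commits sugar to glycolysis, was at 242 against 91.7 FPKM in the BM1 pair and 192 against 168 FPKM in the LM2 pair. The BM1 knockdown library thus stood apart from the other 3. ENO2, the neuronal enolase, was at 33.6 against 13.9 FPKM in the BM1 pair and 26.3 against 20.2 FPKM in the LM2 pair. It overlaps LRRC23 on the same strand, so its level is uncertain. MXI1, a MYC antagonist and HIF target, was at 10.3 against 4.12 FPKM in the BM1 pair and 2.52 against 2.03 FPKM in the LM2 pair. Here the BM1 control library stood apart. Over both lines none of PFKP (adjusted p 0.175), ENO2 (0.139) and MXI1 (0.198) passed in limma. The added 1 shrinks the fold of low genes. By FPKM alone CA9 (ratio of knockdown to control 2.37) and PDK3 (0.468) also reached 2-fold in BM1.

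In LM2 3 of the 36 genes reached 2-fold (8.06% of all tested genes did, 3.83% upward and 4.24% downward), EPAS1 and CA12 upward and VEGFA downward. VEGFA, the main angiogenic growth factor and a classical HIF target, was at 51.6 against 16.7 FPKM in the LM2 pair and 44.9 against 30.05 FPKM in the BM1 pair. Both knockdown libraries lay below both controls. Its difference over both lines was -1.07 ± 0.30 (log2, standard error, limma, adjusted p 0.0775). Leaving out the LM2 knockdown library gave -0.66. CA12, a membrane carbonic anhydrase that helps set extracellular pH, was at 3.77 against 10.9 FPKM in the LM2 pair and 0.931 against 1.26 FPKM in the BM1 pair (adjusted p 0.171). VEGFA is the member with the largest downward difference over both lines, and RP1-261G23.7 overlaps it on the opposite strand.

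The remaining genes of the hypoxia response were also mixed in direction, and none passed. Of the 11 effector genes 5 stood higher in both knockdown libraries and 4 lower in both. The mitophagy receptors BNIP3 (44.2 against 58.7 FPKM in BM1, 28.8 against 41.3 in LM2) and BNIP3L (27.1 to 38.4 FPKM) were among those higher. ADM, the vasodilator peptide adrenomedullin, was lower, at 37.0 against 25.03 FPKM in the BM1 pair and 57.3 against 40.1 FPKM in the LM2 pair (adjusted p 0.236). NDRG1, a stress-response gene, was at 44.2 FPKM in the BM1 control and between 21.1 and 23.5 FPKM in the other 3 libraries. DDIT4, an inhibitor of mTORC1 signalling, was at 67.3 against 84.2 FPKM in the BM1 pair and 114 against 57.4 FPKM in the LM2 pair, in opposite directions (adjusted p 0.580). KDM3A, a histone demethylase, was between 7.06 and 10.6 FPKM, and ANKRD37 between 4.29 and 9.35 FPKM.

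**Figure D2:**
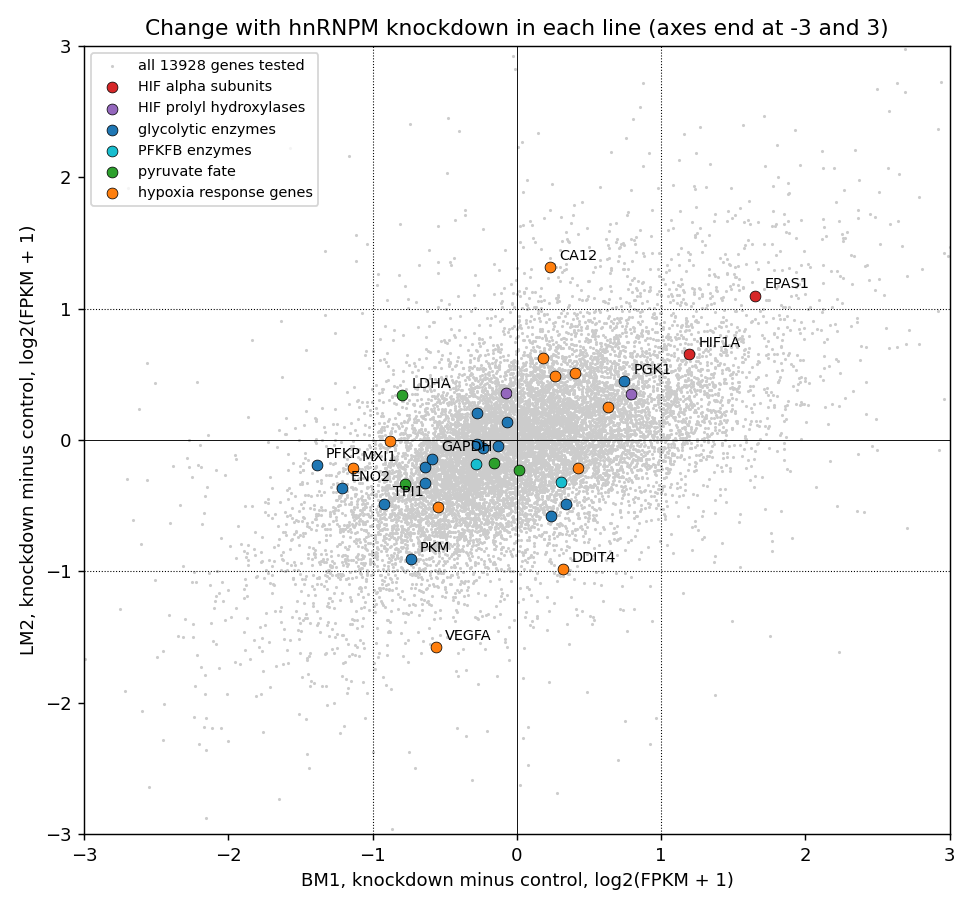
Knockdown minus control on the log2(FPKM + 1) scale in BM1 (horizontal) and LM2 (vertical), 1 point per gene, coloured by role over all 13928 tested genes in grey, with dotted lines at 2-fold. EPAS1 (1.65 and 1.10) lies past 2-fold in both lines, HIF1A (1.20 and 0.65) beside it, and most glycolytic enzymes lie left of and below 0.

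Enzymes at the fate of pyruvate and at the control of phosphofructokinase also did not pass. LDHA and LDHB encode the lactate dehydrogenase subunits, LDHA the one that favours lactate formation. LDHA was at 977 against 563 FPKM in the BM1 pair and 486 against 616 FPKM in the LM2 pair (adjusted p 0.699), lower in one knockdown and higher in the other. LDHA overlaps AC084117.3 on the same strand, so its level is uncertain. LDHB was between 418 and 633 FPKM. PDK1 and PDK3 were at 1.11 to 4.32 FPKM. PFKFB3 and PFKFB4, which make and break fructose 2,6-bisphosphate, the activator of phosphofructokinase, were at 8.63 to 14.5 FPKM and at 4.52 to 6.23 FPKM.

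The second question was how the lines differ. Of the 36 genes 4 passed the test of LM2 against BM1 over both treatments (11.1%, against 4.35% over the whole table tested). HK2 was lower in LM2, and ALDOC, CA9 and CA12 were higher. At an unadjusted p under 0.05 there were 13 of the 36 (36.1%), against 22.4% of all tested genes. Of all tested genes 2.31% were higher in LM2 and 2.04% lower. The other 32 members had adjusted p-values from 0.0569 to 0.986.

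HK2 (ENSG00000159399.9, chromosome 2, 75061108 to 75120486) is the inducible hexokinase, which traps glucose in the cell as glucose 6-phosphate. It was at 33.9 against 30.9 FPKM in the BM1 pair and 8.67 against 8.39 FPKM in the LM2 pair. The lines did not overlap, and the treatments differed little within a line. The difference, LM2 minus BM1, was -1.81 ± 0.25 (log2, standard error, limma, adjusted p 0.00706). It passed with each pseudocount and scaling tried, and missed the threshold without the filter (0.213), without the term for treatment (0.170) and with any library left out (0.205 to 0.485). HK1, the housekeeping hexokinase, was at 80.5 to 88.8 FPKM in all 4 libraries (adjusted p 0.964). HK2 therefore made up 28.5% and 27.6% of the summed FPKM of HK1 and HK2 in BM1 and 9.72% and 8.63% in LM2. HKDC1, at 0.163 to 1.93 FPKM, was not in that sum. HK2 overlaps 1 entry on the opposite strand.

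The carbonic anhydrases hydrate carbon dioxide, and CA9 is among the most widely used marker transcripts of HIF-1. CA9 (ENSG00000107159.12, chromosome 9, 35673853 to 35681156) was at 0.663 against 1.57 FPKM in the BM1 pair and 5.18 against 6.34 FPKM in the LM2 pair. Both LM2 libraries lay above both BM1 libraries. The difference was 1.70 ± 0.26 (log2, standard error, limma, adjusted p 0.0101), on a scale that understates the change of such low levels. CA12 (ENSG00000074410.13, chromosome 15, 63613577 to 63674360) was higher in LM2 by 1.85 ± 0.31 (adjusted p 0.0152), and its LM2 values given above lay above both BM1 values. The CA9 call was lost with quantile normalization (adjusted p 0.0538), and that of CA12 with quantile normalization (0.0921) and a pseudocount of 0.1 (0.0536). CA9 overlaps ARHGEF39 on the opposite strand, while CA12 overlaps no entry.

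ALDOC (ENSG00000109107.13, chromosome 17, 26900133 to 26904282) encodes the brain-type aldolase. It was at 4.11 against 2.28 FPKM in the BM1 pair and 10.8 against 9.18 FPKM in the LM2 pair. Again the lines did not overlap. The difference was 1.42 ± 0.26 (log2, standard error, limma, adjusted p 0.0220), and it missed the threshold with a pseudocount of 0.1 (0.0822) and with quantile normalization (0.0833). ALDOC overlaps entries on both strands and its level is uncertain. ALDOA, the main aldolase, was at 256 to 383 FPKM and took at least 96.5% of the aldolase FPKM in each library.

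These 4 calls were also lost without the filter on low values, without the term for treatment and when any of the 4 libraries was left out. The fits with 3 libraries had no term for treatment. Without the LM2 knockdown library the CA12 difference fell to 1.19, from 1.85.

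Between the control libraries alone 8 of the 36 genes differed at least 2-fold (12.2% of all tested genes did, 6.98% higher in LM2 and 5.26% lower). ALDOC, CA9, CA12 and EPAS1 were higher in LM2, and HK2, MXI1, LDHA and NDRG1 were lower. Between the knockdown libraries 4 differed at least 2-fold in FPKM + 1 (9.04% of all tested genes did, 4.41% higher in LM2 and 4.63% lower). They were the same 4 that passed the test over both treatments. The knockdown libraries enter that test too, so this overlap is partly built in. By FPKM alone PDK1 (ratio of LM2 to BM1 2.29), EGLN3 (0.437) and PDK3 (0.456) also reached 2-fold between controls. PDK1 (2.36) and MXI1 (0.492) also did so between knockdowns. EPAS1 was 2.62 times as high in LM2 as in BM1 in the controls and 1.65 times in the knockdowns (adjusted p 0.0810 over both treatments). PDK1 was at 1.89 against 1.58 FPKM in the BM1 pair and 4.32 against 3.72 FPKM in the LM2 pair (adjusted p 0.0880).

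**Figure D3:**
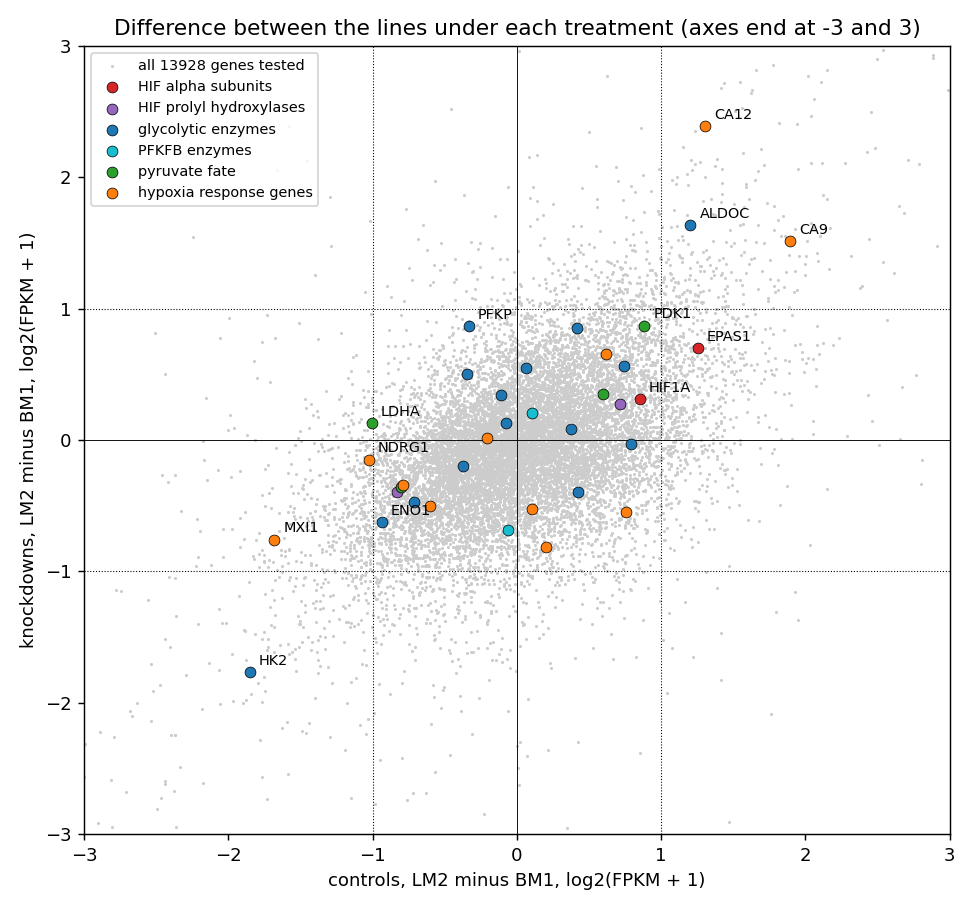
LM2 minus BM1 on the log2(FPKM + 1) scale in the control libraries (horizontal) and in the knockdown libraries (vertical), 1 point per gene, coloured by role over all 13928 tested genes in grey, with dotted lines at 2-fold. HK2 (-1.85 and -1.76) and ALDOC, CA9 and CA12 lie past 2-fold under both treatments, while LDHA and NDRG1 pass it only between controls.

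Isozyme shares of FPKM, a measure per length, also differed between libraries for lactate dehydrogenase and phosphofructokinase. LDHA made up 70.1% against 57.1% of the lactate dehydrogenase FPKM in the BM1 pair and 43.4% against 53.3% in the LM2 pair. The subunit in the majority was therefore LDHB in the LM2 control library and LDHA in the other 3. PFKP made up 81.3% of the phosphofructokinase FPKM in the BM1 control and 61.4% in the BM1 knockdown, and 71.3% and 71.0% in LM2. ENO1 made up at least 98.09% of the summed FPKM of ENO1 and ENO2 in every library. ENO3, at 2.79 to 10.2 FPKM, was not in that sum. The shares have no replicate error.

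**Figure D4:**
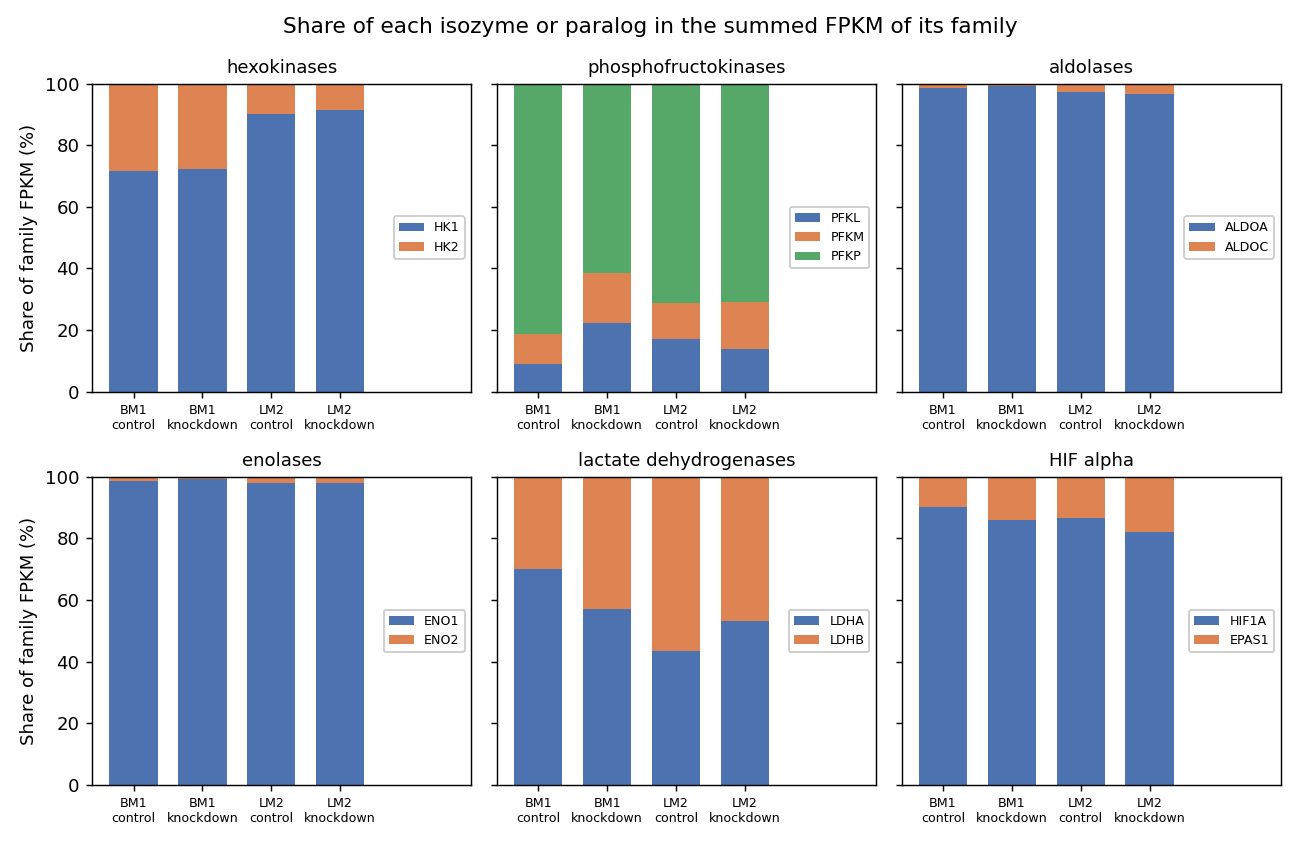
Share (%) of each isozyme or paralog in the summed FPKM of the family members shown, 1 stacked bar per library. The sums leave out HKDC1 and ENO3. The HK2 share separates BM1 (28.5% and 27.6%) from LM2 (9.72% and 8.63%), and the LDHA share is lowest in the LM2 control (43.4%).

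Other genes of the pathways were then read from lists of 33 further glycolysis and pyruvate genes, 14 further oxygen-sensing genes and 39 further HIF targets. Of these 24, 13 and 39 have entries in the table and 20, 13 and 35 a mean of at least 1 FPKM. In the knockdown contrast 1 gene of the first list rose and 1 fell, none of the second passed, and 3 of the third rose and 1 fell (5.47% of all tested genes were called). The medians were 0.17, 0.27 and -0.01 on the log2 scale, against -0.01 over all tested genes.

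SLC2A3, the high-affinity glucose transporter GLUT3, rose in the BM1 pair (6.41 against 21.9 FPKM) and the LM2 pair (8.14 against 19.995 FPKM), by 1.42 ± 0.26 on average (log2, standard error, limma, adjusted p 0.0228). SLC2A1 (GLUT1), at the higher level, was at 123 against 132 FPKM in the BM1 pair and 77.6 against 64.5 FPKM in the LM2 pair (adjusted p 0.876). FBP1, the gluconeogenic fructose bisphosphatase that opposes phosphofructokinase, fell in the BM1 pair (42.0 against 4.40 FPKM) and the LM2 pair (12.3 against 3.19 FPKM), with an average of -2.33 ± 0.34 (adjusted p 0.0120). Both knockdown libraries lay outside the range of the controls for SLC2A3 and for FBP1. PDP2, a pyruvate dehydrogenase phosphatase, had a difference of 0.83 (adjusted p 0.185) and MPC1, a subunit of the mitochondrial pyruvate carrier, one of -0.61 (adjusted p 0.181).

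Among HIF targets PLOD2, a collagen lysyl hydroxylase, rose in the BM1 pair (21.0 against 178 FPKM) and the LM2 pair (37.8 against 84.4 FPKM), by 2.08 ± 0.41 on average (limma, adjusted p 0.0268). TMEM45A rose in the BM1 pair (3.82 against 22.5 FPKM) and the LM2 pair (3.14 against 11.4 FPKM), with an adjusted p of 0.0118. RIOK3, an atypical kinase, rose by 1.11 (adjusted p 0.0426). MAFF, a small MAF transcription factor, fell in the BM1 pair (8.35 against 3.49 FPKM) and the LM2 pair (18.4 against 5.48 FPKM), with an adjusted p of 0.0296. MAFF overlaps PLA2G6 on the opposite strand. ZNF395, which overlaps FBXO16, was at 34.6 against 11.1 FPKM in the BM1 pair and 33.0 against 21.5 FPKM in the LM2 pair (adjusted p 0.0727). All 6 calls (SLC2A3, FBP1, PLOD2, TMEM45A, RIOK3 and MAFF) were lost with a pseudocount of 0.1 (adjusted p 0.0729 to 0.122) and with quantile normalization (0.0691 to 0.106), and that of RIOK3 also with a pseudocount of 0.5 (0.0616). With the trend in GC content and length removed, PLOD2 (adjusted p 0.0556), RIOK3 (0.0722) and MAFF (0.0607) missed the threshold, while EPAS1 (0.0372), SLC2A3 (0.0349), FBP1 (0.0324) and TMEM45A (0.0290) passed.

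Of the oxygen-sensing genes, ELOC, a subunit of the VHL ligase, was at 21.5 against 42.7 FPKM in the BM1 pair and 25.7 against 50.1 FPKM in the LM2 pair (0.95 ± 0.25, log2, limma, adjusted p 0.0631). P4HTM, a transmembrane prolyl hydroxylase, had a difference of 0.81 (adjusted p 0.0983). P4HTM overlaps WDR6 on the same strand. ELOB and RBX1, other subunits of the ligase, had differences of -0.25 and -0.19. VHL itself was at 8.89 to 10.6 FPKM and ARNT, the beta subunit of HIF, at 8.90 to 15.2 FPKM.

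Between the lines 1 of the further HIF targets was higher in LM2 and 1 lower, 1 oxygen-sensing gene was lower, and none of the glycolysis list passed (4.35% of all tested genes were called). CITED2, which competes with HIF for its coactivators, was at 107 against 121 FPKM in the BM1 pair and 31.0 against 65.8 FPKM in the LM2 pair (-1.31 ± 0.29, log2, limma, adjusted p 0.0437). LOX, a collagen cross-linking oxidase, was at 3.64 against 6.43 FPKM in the BM1 pair and 12.5 against 12.7 FPKM in the LM2 pair (adjusted p 0.0460). ARNT2 (0.49), ARNT (0.42) and the factor-inhibiting hydroxylase HIF1AN (-0.38) did not pass. The calls of CITED2 and LOX were lost with the GC and length trend removed (0.0602 and 0.0519), with pseudocounts of 0.1 (0.140 and 0.127) and 0.5 (0.0646 and 0.0610) and with quantile normalization (0.105 and 0.104). That of CITED2 was also lost with size factors (0.0529). The chemokine receptor gene CXCR4 was lower in LM2, with a difference of -3.99 on the log2 scale (adjusted p 0.000624). ANGPTL4 had a difference of 1.43 (adjusted p 0.0549) and RIOK3 one of -0.75 (adjusted p 0.131). In the glycolysis list the 2 largest differences downward were those of ENO3 (-1.08) and FBP1 (-1.03) and the 2 largest upward those of ADPGK (0.92) and TIGAR (0.72), and none passed (adjusted p 0.0723 to 0.141). Without the filter on low values, and without the term for the other factor, none of the genes called here kept its call in either contrast. With a library left out, CXCR4 alone kept its call, in 3 of the 4 cases. In the knockdown contrast, leaving out the BM1 control moved FBP1 to -1.48 and leaving out the BM1 knockdown moved RIOK3 to 0.67. Leaving out the LM2 control moved MAFF to -0.79 in that contrast and CITED2 to -0.78 between lines. A pseudocount of 0.1 moved CXCR4, which is below 1 FPKM in LM2, to -6.39.

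**Figure D5:**
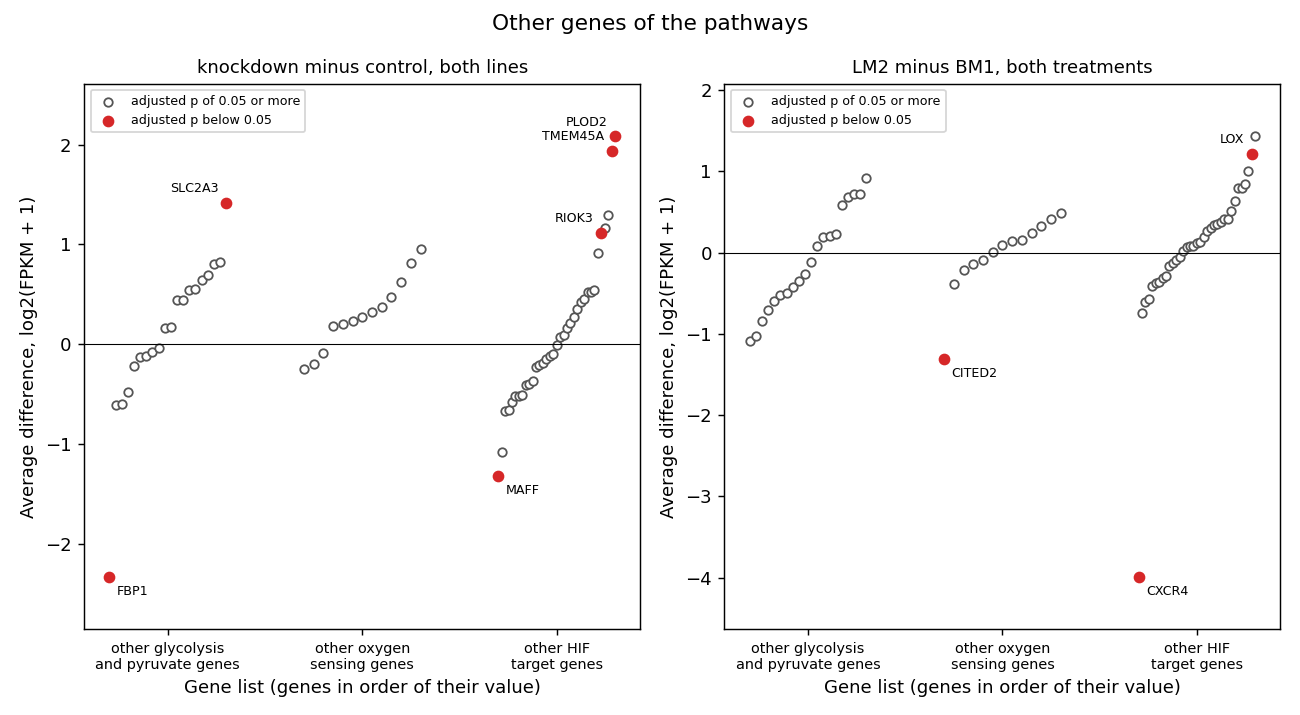
Average difference on the log2(FPKM + 1) scale of the other pathway genes, by list and in order of value, for knockdown minus control over both lines (left) and LM2 minus BM1 over both treatments (right), with filled points below an adjusted p of 0.05. PLOD2 (2.08) and FBP1 (-2.33) mark the ends on the left, ANGPTL4 (1.43) and CXCR4 (-3.99) on the right.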

How the data were processed

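The authors deposited 1 table of FPKM values, with 1 column for each library per the file headers. The submitters' processing notes name STAR 2.5.3a, Cuffdiff 2.2.1 and GRCh37, and no source used here gives the annotation or strand setting. Of 20369 entries, 40 from 3 repeated gene IDs were left out. In 1623 low genes with a single transcript, 36.1% to 44.1% of FPKM times length lay within 0.02 of a whole multiple of 1 step, from which depth was inferred. Since most values were not whole, count tests were not used. Genes averaging 1 FPKM or more were fitted as log2(FPKM + 1) in limma 3.58.1 (R 4.3.3) with terms for line and treatment, which pair each knockdown with the control of its own line. P-values were two-sided and Benjamini-Hochberg adjusted over 13928 genes, with a threshold of 0.05. The fit was run on simulated data with known changes, drawn from its own fitted variances. This checks the code and not the assumptions of the fit about these libraries. An exact two-sided permutation test that swaps labels within the pairs cannot give a p below 0.5 on these libraries. Scaling moved the median of all genes by less than 0.1.

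Members are given in full where they passed a test or changed at least 2-fold in any pair of libraries compared, together with HIF1A, EPAS1 and GAPDH. All fold rules were applied to FPKM + 1. Further members, markers and SLC2A1, VHL and ARNT are given by library after their values were seen. Of the other pathway genes, those that passed and the 2 largest in each direction per list are named. The members and lists were chosen with earlier results of these data known, and 1 gene of the HIF target list is not reported here. Promoters are RefSeq's, and 29 of 33 windows hold a GENCODE 29 transcript start. Alternatives were pseudocounts of 0.1 and 0.5, no filter, quantile normalization, size factors, an intensity trend, fits without the other factor, each library left out, a 1.5-fold rule and, added after seeing the data, removal of the GC and length trend and other denominators for the summed level.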

Additional observations from a re-analysis of the deposited data

Results flagged for a closer look

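No member of the set had opposite changes of at least 1.5-fold in FPKM + 1 in the 2 lines or under the 2 treatments. Of the other pathway genes, 3 did, and since each value compares 2 libraries the differences were not tested. ARNT2, a HIF beta subunit paralog, had a knockdown minus control difference of -1.04 in BM1 and 1.49 in LM2 (log2 of FPKM + 1), and an LM2 minus BM1 difference of -0.77 in controls and 1.76 in knockdowns. HIGD1A, a mitochondrial hypoxia-induced protein gene, had 0.93 and -0.61 for the knockdown and 0.60 and -0.93 between lines. PLOD2 had 0.82 in controls and -1.07 in knockdowns between lines. ARNT2 overlaps other entries on both strands.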

How the results depend on the processing

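Over both lines, 1 member (EPAS1) was called for the knockdown. The count was 3 with an intensity trend (EPAS1, HIF1A and PKM). It was 0 in limma with a pseudocount of 0.1, no filter, quantile normalization and no replicate block (no pairing by line), with 6, 8, 6 and 2 members at an unadjusted p under 0.05. Leaving out any library, also without the pairing, gave 0 to 0, with 1 to 4 at an unadjusted p under 0.05. Over all genes the count went from 762 to 27 with a pseudocount of 0.1, 427 with the GC and length trend removed, and 0 with no filter, quantile normalization, no pairing or any library left out (0 to 0), where 3735, 3255, 1548 and 860 to 1943 genes had an unadjusted p under 0.05.

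Between the lines, 4 members were called. A pseudocount of 0.1 lowered this to 2, quantile normalization to 1, and it was 0 without the filter, without the term for treatment and with any library left out (0 to 0), where 14, 6 and 4 to 10 members had an unadjusted p under 0.05. Over all genes it went from 606 to 216, 104, 0, 11 and 6 to 28 in that order. The causes were not tested, except that fits with 3 libraries also lack the second term. Some genes without a call changed sign. SLC2A1 (knockdown) was at 0.0096 with quantile normalization and 0.10 with the GC and length trend removed. With a library left out the knockdown estimates ranged from -0.59 to 0.43 (SLC2A1), -0.73 to 0.28 (LDHA), -1.52 to 0.16 (MXI1), -0.28 to 0.55 (EGLN3), -0.71 to 0.046 (DDIT4) and -0.43 to 1.97 (CA12), and those between lines from -2.53 to 0.47 (FBP1), -0.042 to 0.098 (HK1) and -0.25 to 1.24 (ARNT2). A 1.5-fold rule raised the members counted for the knockdown to 16 (BM1) and 7 (LM2), where 37.8% and 24.5% of all tested genes reached it, and between lines to 22 (controls) and 13 (knockdowns), where 34% and 27.7% did. The longer promoter core lowered the count from 26 to 16.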
